A study of Mus musculus with 10 samples.

Results

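Voltage-gated sodium and calcium channels are the pores through which neurons fire and through which electrical activity becomes calcium entry. The genes described here are all those of the RNA table whose symbols start with Cacn, or with Scn and a digit, and that had a value above 0 in any of the 4 RNA libraries. There were 36 of them among 16338 genes, 11 sodium and 25 calcium channel genes. Peaks were assigned by the gene name that the authors gave to each, which yielded 17 of 6995 peaks for these genes.

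All libraries came from cortical midline of C57/Bl6 mice at embryonic day 14.5. RNA was measured in 2 libraries of conditional knockouts (cKO), genotype Rcor2f/f/EMX1-iCRE, and 2 control libraries (CTL) of genotype Rcor2f/f, so the controls carried the floxed alleles without the recombinase. Emx1-driven Cre acts in progenitors of the dorsal telencephalon and their offspring, so interneurons that enter from the ventral side, vessels, blood and meninges lie outside that lineage. Chromatin was precipitated from wild type midline, with 2 libraries each of Rcor2 ChIP, input and control IgG. Rcor2 encodes a co-repressor of the CoREST family that joins histone demethylase and deacetylase activities, and Rest, its DNA-binding partner, is known for holding neuronal genes silent outside neurons. Nothing in the labels gives litters or pooling, so each p-value below measures only the spread between these libraries, which may in part be technical.

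A voltage-gated channel is built around 1 large pore-forming subunit, called alpha in sodium channels and alpha1 in calcium channels. Auxiliary subunits bring it to the membrane and tune its gating: beta subunits for sodium channels, and alpha2delta and beta subunits for calcium channels. Most of the Cacng genes, named as gamma subunits, encode partners of AMPA-type glutamate receptors instead. Young cortical neurons build up these channels while they migrate and grow axons, before synapses form.

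The 4 RNA libraries held 27674987 to 30270598 recovered reads. Rcor2 had normalized counts of 6363 and 6840 in the cKO and 7901 and 7257 in the controls, a log2 change of -0.20 (SE 0.057, limma adjusted p 0.0541), which did not pass, although it did with DESeq2 (adjusted p 0.0478). How far this count covers the floxed exons is not stated, so it is no direct check of the deletion. All 13 listed neuronal markers were lower in both cKO libraries than in both controls and 11 fell by the test. Over all tested genes, 33.3% lay below in this way and 8.29% fell. Summed normalized counts of these markers were 131699 and 142806 in the cKO and 182858 and 184352 in the controls. The 10 radial glia markers summed to 112765 and 112561 in the cKO and 108005 and 107400 in the controls, and the 7 markers of dividing cells to 83584 and 77752 in the cKO and 64763 and 70341 in the controls. In such bulk tissue, fewer cells of a type and less RNA per cell cannot be told apart.

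Most channel genes that changed were lower in the cKO. Of 36 channel genes, 33 had a mean of at least 10 normalized counts and were tested. Of these, 9 fell and 2 rose at a limma adjusted p under 0.05, and 22 did not pass. Among all 14324 tested genes 8.29% were called lower and 6.16% higher, against 27.3% and 6.06% of the tested channel genes. Those that fell were Scn2a, Scn8a and Scn3b on the sodium side and Cacna1c, Cacna1d, Cacna1b, Cacna1e, Cacnb4 and Cacng2 on the calcium side, and the T-type calcium channel gene Cacna1g was among those that rose. The median log2 change was -0.18 over the 33 channel genes and -0.01 over all tested genes. Both cKO libraries lay below both controls for 18 of the 33 channel genes and above both for 4, where 33.3% of all tested genes lay below and 27.7% above. In cKO replicate 1 the median over the 33 genes was -0.18 against both controls, and in cKO replicate 2 it was -0.15. In the authors' deposited table the same 11 genes had an adjusted p under 0.05, with the same directions, where 6.73% of genes were lower and 5.93% higher. With edgeR 8 channel genes fell and 2 rose, beside 6.47% and 5.69% of all genes, and with DESeq2 8 fell and 2 rose, beside 6.53% and 5.93%.

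**Figure D1:**
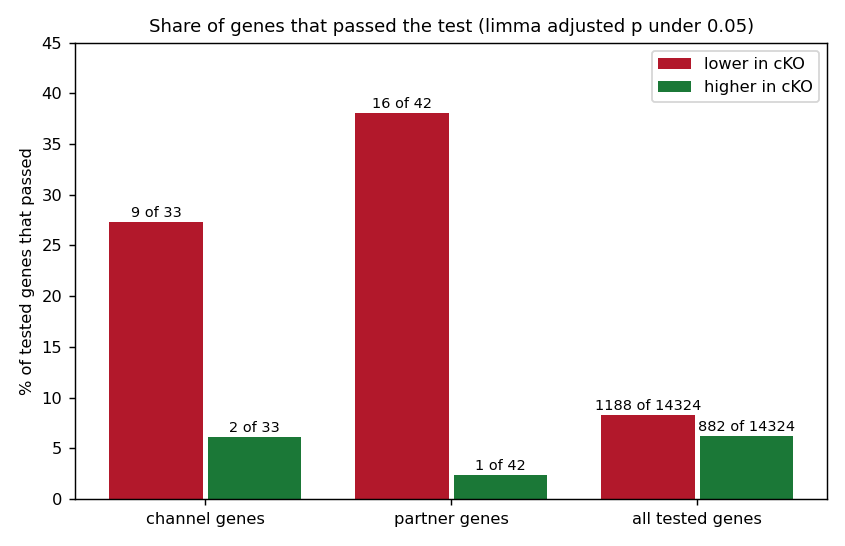
Bars give the percentage of tested genes called lower or higher in the cKO (limma adjusted p under 0.05) among channel genes, a list of partner genes and all tested genes, with counts above the bars. Lower calls made up 27.3% of the channel genes and 8.29% of all tested genes, and higher calls 6.06% and 6.16%.

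The calls leaned on having both controls. With control replicate 1 left out, 0 channel genes fell and 1 rose, where 0.761% and 0.44% of all genes were called lower and higher. With control replicate 2 left out, Scn2a and Cacna1d fell and Cacna1g rose, beside 0.572% and 0.405% of all genes. Without a control, the spread rests on the cKO libraries and the lone control is assumed to vary like them. The log2 changes themselves kept their direction in each of these fits for the 11 called genes, which the choice of genes whose groups do not overlap fixes in advance.

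Among the sodium channel alpha genes, Scn2a had the largest fall. Scn2a encodes the main sodium channel of the young cortical axon and lies on mouse chromosome 2 from 65620764 to 65767447 (RefSeq GRCm38.p6, the assembly of mm10). It had 861 and 1016 normalized counts in the cKO, against 1495 and 1418 in the controls. Both cKO libraries were well below both controls, and replicate 1 was the lower of the cKO pair. The means were 938 ± 110 in the cKO and 1457 ± 54.2 in the controls (SD, n = 2 each), with a log2 change of -0.64 (SE 0.084, limma adjusted p 0.00568).

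Scn8a encodes the channel that takes over at the axon initial segment as neurons mature. Its normalized counts were 916 and 788 in the cKO and 1085 and 1088 in the controls, so the controls nearly coincided and the cKO libraries lay apart from each other. The log2 change was -0.35 (SE 0.081, limma adjusted p 0.0251), and with edgeR the call was lost (adjusted p 0.0635), as it was with quantile normalization. Scn1a, known from inhibitory interneurons of the older brain, had 111 and 129 normalized counts in the cKO and 172 and 166 in the controls, a log2 change of -0.49 that just missed the threshold (limma adjusted p 0.0563). Without cKO replicate 2 it passed (limma adjusted p 0.0237).

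Scn3a, the alpha gene known for its expression in embryonic brain, had the highest normalized counts of its class: 2384 and 2415 in the cKO and 2589 and 2479 in the controls (log2 -0.08, limma adjusted p 0.33). Both cKO values were below both controls, by a margin that did not pass. Scn9a and Scn11a, best known from peripheral sensory neurons, had log2 changes of 0.25 and 0.58 that did not pass either (limma adjusted p 0.409 and 0.37). Scn11a was the least counted member to be tested, with 19.5 and 12.7 normalized counts in the cKO and 8.78 and 11.9 in the controls. Scn1a, Scn2a, Scn3a and Scn9a lie near each other on chromosome 2 and are related in sequence. How reads that match more than 1 of them were counted is not stated, so their counts are less certain than those of single genes.

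Sodium channel beta genes encode small membrane proteins that bind the pore and act in adhesion. Scn3b had 2564 and 2813 normalized counts in the cKO and 3424 and 3455 in the controls, with the groups clearly apart. Its log2 change was -0.36 (SE 0.056, limma adjusted p 0.00788). Scn2b was lower in both cKO libraries than in both controls without passing (log2 -0.39, limma adjusted p 0.101), and Scn4b overlapped between the groups at 16.6 to 25.7 normalized counts in the cKO and 10.7 to 18.4 in the controls. Over the 11 sodium channel genes, summed normalized counts were 7430 and 7712 in the cKO and 9298 and 9067 in the controls.

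**Figure D2:**
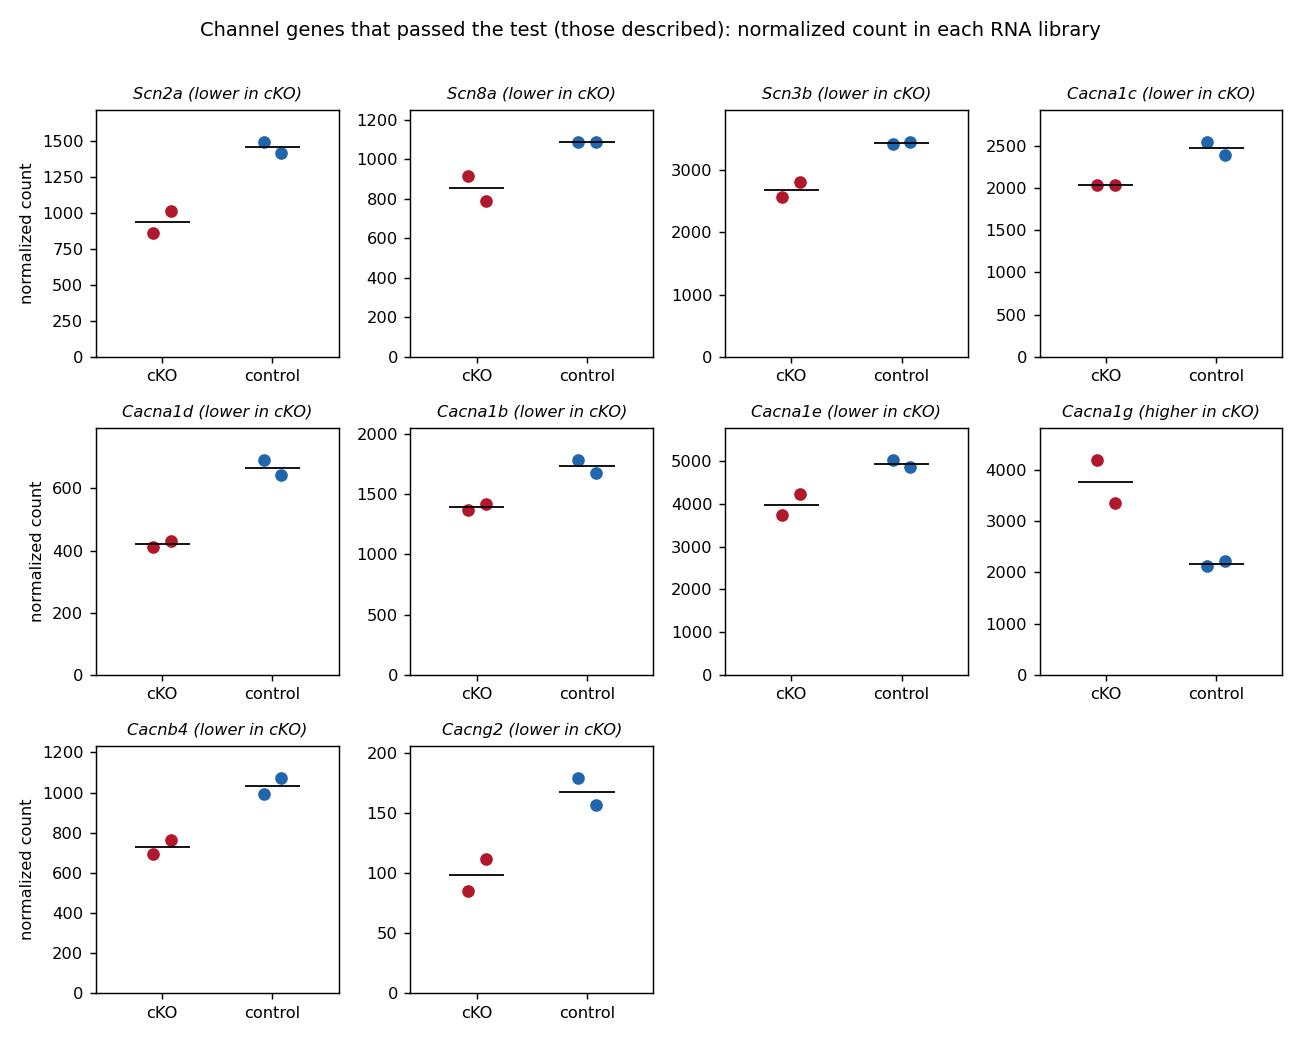
Each panel plots the normalized count of 1 of the channel genes described here that passed the test, in the 2 cKO libraries (red) and the 2 control libraries (blue); lines are group means and every axis starts at 0. The groups do not overlap in any panel, and the cKO is higher in that of Cacna1g and lower in the others.

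L-type calcium channels open at strong depolarization and link activity to gene expression in neurons. Cacna1d had 410 and 432 normalized counts in the cKO and 691 and 642 in the controls. The 2 cKO values were close together and well below both controls, with means of 421 ± 15.1 in the cKO and 667 ± 34.8 in the controls (SD, n = 2 each). It fell by 0.66 on the log2 scale (SE 0.083, limma adjusted p 0.00537). Cacna1c, the more highly counted L-type gene, had 2042 and 2043 normalized counts in the cKO and 2549 and 2394 in the controls (log2 -0.27, SE 0.052, limma adjusted p 0.0136). The skeletal muscle gene Cacna1s was at 25.7 and 18.6 normalized counts in the cKO and 26.3 and 22.7 in the controls, which overlap.

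Channels of the N, P/Q and R types are those that later trigger transmitter release. Cacna1e, the R-type gene and the most highly counted of them, had 3737 and 4235 normalized counts in the cKO and 5032 and 4855 in the controls (log2 -0.31, SE 0.063, limma adjusted p 0.0161). Cacna1b, the N-type gene, had 1370 and 1418 normalized counts in the cKO and 1786 and 1681 in the controls (log2 -0.31, SE 0.058, limma adjusted p 0.012). The groups were apart for both genes, with fitted falls of the same size. The P/Q-type gene Cacna1a had 913 and 836 normalized counts in the cKO and 947 and 840 in the controls, a log2 change of -0.03 that did not pass, and the spread within each genotype was larger than the difference between them.

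T-type channels open near the resting potential and support burst firing. Cacna1g rose: it had 4195 and 3352 normalized counts in the cKO and 2124 and 2215 in the controls. The cKO libraries differed from each other, with replicate 1 the higher, yet the lower of them exceeded both controls. The means were 3773 ± 596 in the cKO and 2170 ± 64.4 in the controls (SD, n = 2 each), a log2 change of 0.79 (SE 0.093, limma adjusted p 0.00435), and the call held in every alternative fit that was run, with adjusted p-values up to 0.0469. A list of 5 meningeal markers, among them the collagen gene Col1a1, summed to 5490 and 1495 normalized counts in the cKO and 1071 and 912 in the controls, and was also highest in cKO replicate 1. The fitted rise of Cacna1g was 0.63 without that library, and the part of meningeal tissue in it was not tested. The sister genes did not pass. Cacna1h had 2980 and 2940 normalized counts in the cKO and 3149 and 2942 in the controls (log2 -0.04, limma adjusted p 0.647), and Cacna1i had 318 and 313 in the cKO and 274 and 286 in the controls (log2 0.17, limma adjusted p 0.29). Whether Cacna1g differs from its sister genes in its change was not tested as such.

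**Figure D3:**
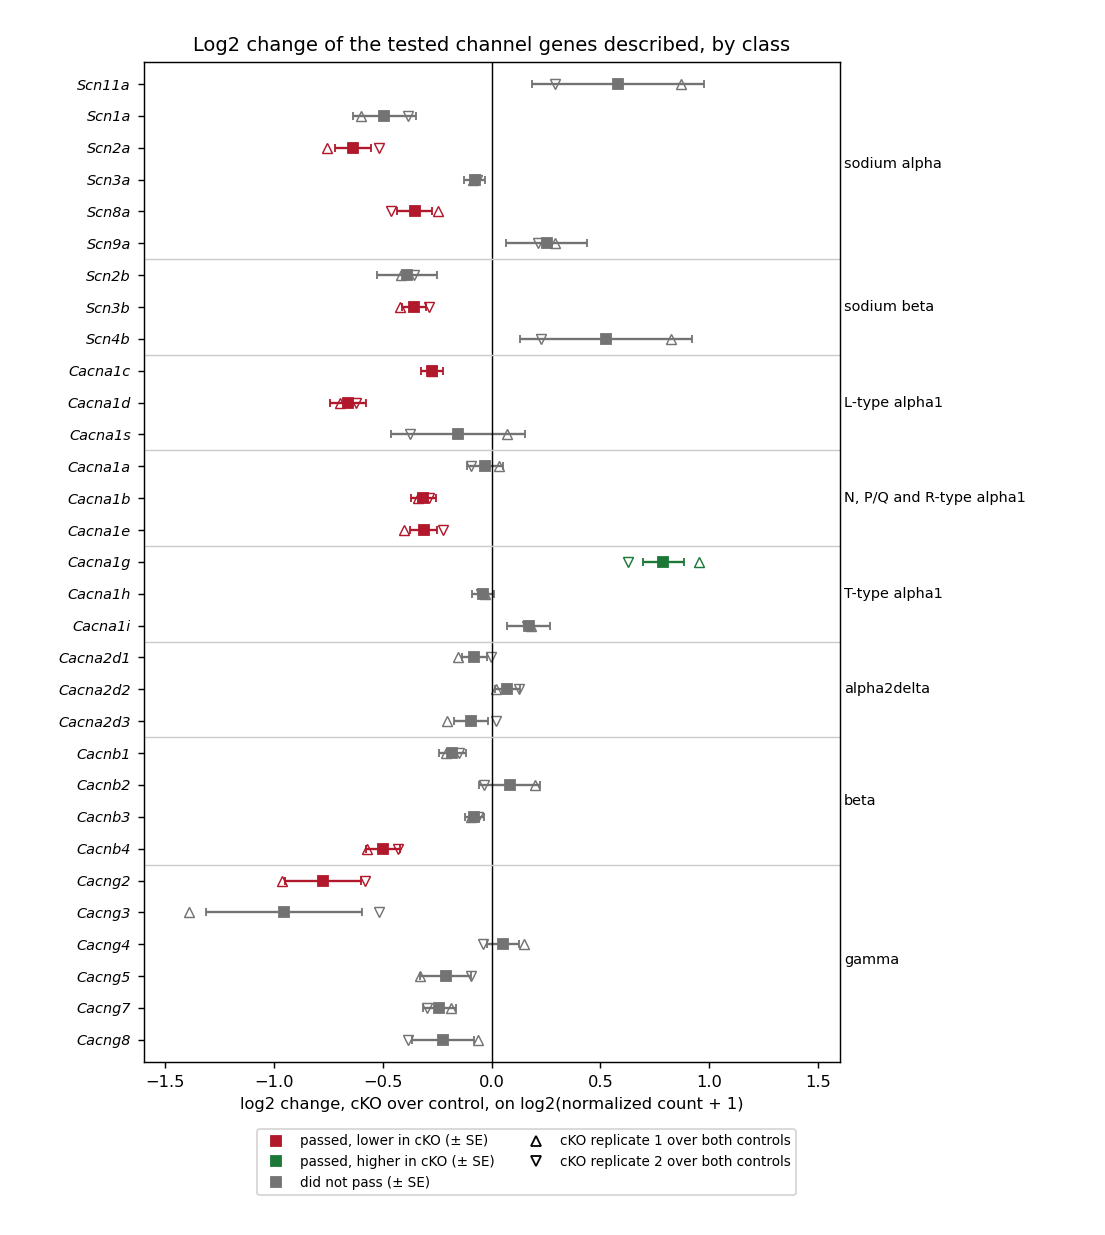
Squares give the log2 change (cKO over control) of each tested channel gene described here with its SE, coloured by whether it passed the test, and triangles give each cKO library against the mean of both controls. Of the coloured genes, Cacna1g lies to the right of 0 and the 9 that fell to the left, and all 3 alpha2delta genes sit close to 0.

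Of the 17 tested genes that encode no pore, counted here as auxiliary, 3 fell and 0 rose (17.6% and 0%). Among the 17 are 6 Cacng genes, 1 of which fell, although most Cacng genes encode AMPA receptor partners. Of the 16 pore-forming genes 6 fell and 2 rose (37.5% and 12.5%). Over all tested genes 8.29% fell and 6.16% rose. The difference between the auxiliary and the pore-forming counts was not tested. The alpha2delta subunits, extracellular proteins that bring channels to the membrane and bind gabapentin-type drugs in the case of Cacna2d1 and Cacna2d2, had 0 calls among 3 tested genes, with limma adjusted p-values of 0.395 to 0.458 (unadjusted p of 0.201 to 0.256, so 0 also fell under 0.05 without adjustment). DESeq2 and edgeR called 0 of them too. With 3 genes and such shares over all genes, 0 calls says little about the class. Cacna2d1 had the highest normalized counts of all channel genes, 5270 and 5859 in the cKO and 5972 and 5777 in the controls (log2 -0.08, SE 0.058). Cacna2d2 had 1572 and 1690 normalized counts in the cKO and 1575 and 1526 in the controls, and Cacna2d3 had 1207 and 1410 in the cKO and 1396 and 1390 in the controls, so both overlapped between the genotypes. Without cKO replicate 2, Cacna2d3 was called lower (log2 -0.21, limma adjusted p 0.0425).

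Beta subunits sit inside the cell and set how much of a calcium channel reaches the surface. Cacnb4, the gene mutated in the ataxic lethargic mouse, had 694 and 765 normalized counts in the cKO and 993 and 1072 in the controls, with the groups apart (log2 -0.50, SE 0.077, limma adjusted p 0.00765). Cacnb3, the most highly counted beta gene, had 3805 and 3900 normalized counts in the cKO and 4131 and 4010 in the controls, a log2 change of -0.08 that did not pass. Cacnb1 and Cacnb2 had log2 changes of -0.18 and 0.08 (limma adjusted p 0.0977 and 0.736). Cacnb2 had 250 and 212 normalized counts in the cKO and 238 and 199 in the controls, an overlap.

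Cacng2 encodes stargazin, which carries AMPA receptors to synapses, and had 85.4 and 112 normalized counts in the cKO and 179 and 157 in the controls. Both cKO values were lower than both control values, with a log2 change of -0.77 (SE 0.175, limma adjusted p 0.024). The call was lost with DESeq2 (adjusted p 0.0503) and without cKO replicate 1. Cacng4, its relative with the highest normalized counts, had 1318 and 1158 in the cKO and 1205 and 1177 in the controls, which overlap (log2 0.05). Cacng3, Cacng5, Cacng7 and Cacng8 had log2 changes of -0.95, -0.21, -0.24 and -0.22 that did not pass, with limma adjusted p-values from 0.0721 to 0.337. Below the limit of 10 stood 3 channel genes: Cacng1 at a mean of 6.56 normalized counts in the cKO and 5.35 in the controls, Cacna2d4 at 1.54 in the cKO and 4.11 in the controls, and Cacng6 at 0.514 in the cKO and 0.975 in the controls. No change was tested for them.

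A list of 47 symbols of genes that act with these channels, with 2 names for some genes, was followed in the same fit, and 42 were tested. Of these, 16 fell, 1 rose and 25 did not pass, which is 38.1% lower and 2.38% higher, beside the 8.29% and 6.16% of all genes given above. The largest fall was that of Ryr3, a ryanodine receptor that releases calcium from internal stores: it had 395 and 540 normalized counts in the cKO and 1019 and 1048 in the controls (log2 -1.16, SE 0.13, limma adjusted p 0.00429). Ryr2 and the junctophilins Jph3 and Jph4, which tie stores to the surface membrane, fell too (log2 -0.64, -0.62 and -0.21).

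Several partners of sodium channels fell and others did not pass. Ank3, which encodes ankyrin G, the anchor of sodium channels at the axon initial segment, had 7206 and 7505 normalized counts in the cKO and 8973 and 9388 in the controls (log2 -0.32, SE 0.047, limma adjusted p 0.0069). Sptbn4, the spectrin of the same scaffold, fell by 0.64 on the log2 scale, and Fgf12, a cytoplasmic partner of sodium channels, by 0.68. Its relatives Fgf11, Fgf13 and Fgf14 had log2 changes of -0.29, -0.13 and -0.31 that did not pass (limma adjusted p 0.115, 0.257 and 0.101). Ank2 had one of -0.23, which did not pass (limma adjusted p 0.077), although it did with DESeq2 (adjusted p 0.0261). Unc79, a subunit of the sodium leak channel complex, had 1629 and 1738 normalized counts in the cKO and 2467 and 2464 in the controls (log2 -0.55, SE 0.054, limma adjusted p 0.00366), and Fam155a, of the same complex, fell by 0.42. Nalcn, the pore of that complex, had a log2 change of 0.19 and Unc80 one of -0.06, and neither passed (limma adjusted p 0.173 and 0.84).

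The active-zone genes Rims1 and Rimbp2, whose products tether calcium channels at release sites, fell by 0.61 and 0.82 on the log2 scale, while Rims2 had a log2 change of -0.08 that did not pass (limma adjusted p 0.437). Downstream of calcium entry, the calmodulin genes Calm2 and Calm3 fell by 0.17 and 0.21, the kinase gene Camk2b by 0.48 and the calcineurin gene Ppp3ca by 0.24. Nfatc4, a transcription factor that calcineurin activates, was the 1 gene of the list to rise, with 2736 and 2503 normalized counts in the cKO and 1993 and 1944 in the controls (log2 0.41, SE 0.058, limma adjusted p 0.00649). With control replicate 1 or control replicate 2 left out, 2 genes of the list fell, Ryr3 and Unc79 each time, and 0 rose. With DESeq2, Ryr2, Rimbp2, Jph4 and Fam155a lost their calls, and with edgeR Calm2 and Calm3. Markers of ventrally born interneurons also moved with these results: 5 of 12 tested fell and 0 rose, beside 8.29% and 6.16% of all genes. Their sums were 3905 and 3976 normalized counts in the cKO and 4609 and 4936 in the controls. The part of these markers in the channel values was not tested.

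In chromatin, 10 of the 36 channel genes were named for at least 1 Rcor2 peak, which is 27.8%, where 19.4% of all genes in the RNA table were. Channel genes are long, with a median span of 104 kb in RefSeq against 22.7 kb over all genes with a known span. Among genes that span at least 100 kb, 9 of 18 channel genes had a peak, beside 42% of all 2269 such genes. All 10 were calcium channel genes: Cacna1c with 4 peaks, Cacna1e, Cacna2d1, Cacna2d2 and Cacna2d3 with 2 each, and Cacna1a, Cacna1b, Cacna1g, Cacna1i and Cacnb2 with 1 each. None of the 11 sodium channel genes was named for a peak. Of the peaks, 14 were classed by the authors as gene body and 3 as promoter, which is 82.4% and 17.6%, where gene body made up 47.0% and promoter 30.2% of the 5353 peaks with a gene name. The shares over all named peaks are not matched for gene span.

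By the peak names, the authors called peaks on Rcor2 against IgG, so a height above IgG is what selected them: both Rcor2 heights exceeded both IgG heights in 16 of the 17, beside 98.9% of all peaks. Against input, which did not enter the call, both Rcor2 heights were above both input heights at 7 of the 17 peaks, below both at 2 and overlapping at 8; of all peaks 40.3% lay above and 9.08% below. The heights carry no scaling for library depth that the values show, so these orders are within the deposited heights, and with 2 libraries against 2 an exact permutation test cannot go below p = 0.333.

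The peak with the strongest enrichment lay in the body of Cacna2d2, on chromosome 9 from 107483842 to 107484412 (mm10), with a fold enrichment of 9.33 by the authors. Its heights were 27 and 45 in Rcor2 ChIP, 21 and 21 in input and 5 and 3 in IgG. A peak in Cacna2d3 (chromosome 14, 29695806 to 29696180) had a fold enrichment of 8.49, with heights of 30 and 34 in Rcor2 ChIP, 9 and 9 in input and 7 and 3 in IgG. These stood at ranks 66 and 101 of the 6995 peaks by fold enrichment, and neither gene passed the RNA test. The first Cacna2d1 peak (chromosome 5, 16094179 to 16094374) had 18 and 14 in Rcor2 ChIP, 4 and 7 in input and 5 and 2 in IgG.

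**Figure D4:**
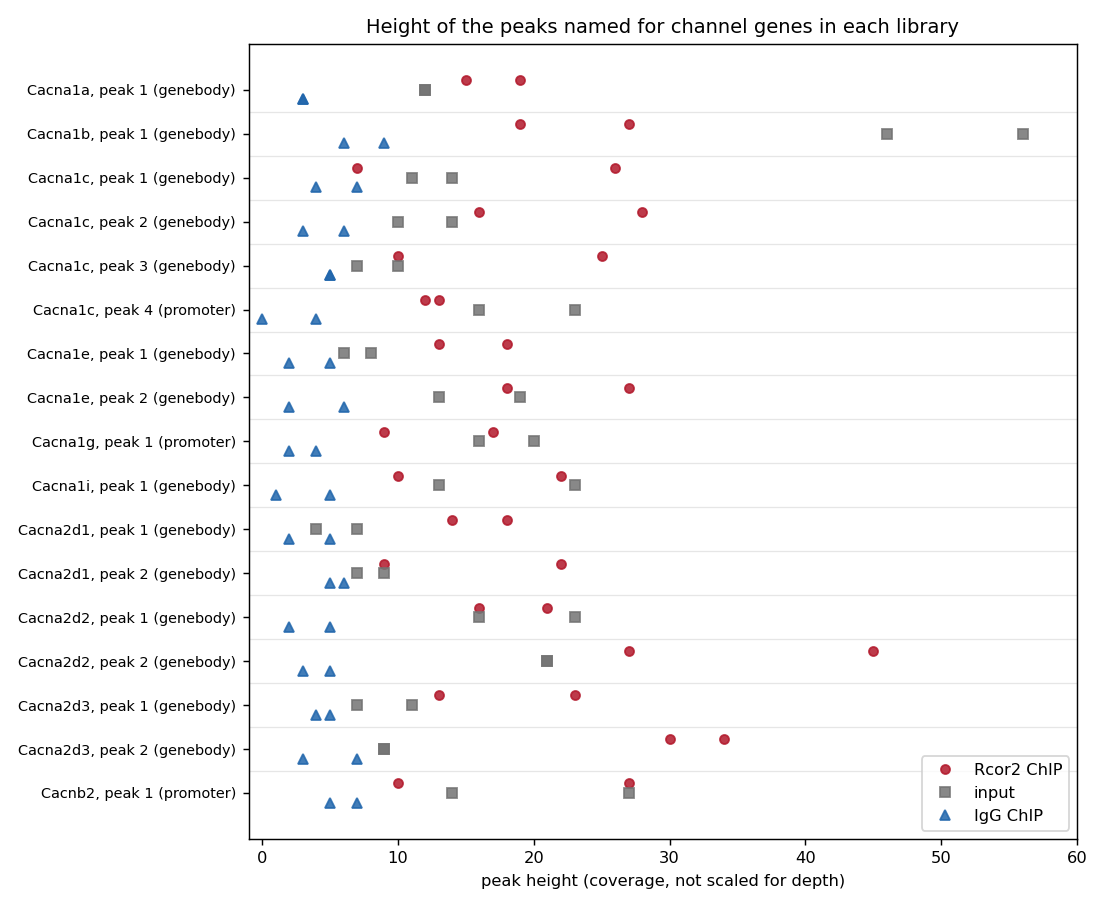
Each row is 1 of the 17 peaks named for channel genes, with its height (coverage, not scaled for depth) in 2 Rcor2 ChIP, 2 input and 2 IgG libraries. Rcor2 points stand to the right of both input points in 7 rows, as at the second Cacna2d3 peak, and to the left of both at Cacna1b and at the promoter peak of Cacna1c.

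Peaks and RNA calls met in 4 genes: Cacna1c, Cacna1e and Cacna1b among those that fell, and Cacna1g among those that rose. The single peak of Cacna1b (chromosome 2, 24634288 to 24634791) had heights of 19 and 27 in Rcor2 ChIP, 56 and 46 in input and 9 and 6 in IgG, the highest input of the 17. In Cacna1e, the first peak (chromosome 1, 154520583 to 154520814) had 13 and 18 in Rcor2 ChIP, 6 and 8 in input and 5 and 2 in IgG, and the second had 18 and 27 in Rcor2 ChIP, 13 and 19 in input and 6 and 2 in IgG. Rcor2 stood above input at the first and overlapped it at the second. Of the 4 peaks of Cacna1c, the one from 118738812 to 118739279 on chromosome 6 was above input (16 and 28 in Rcor2 ChIP, 10 and 14 in input, 6 and 3 in IgG). Its promoter peak (119109115 to 119109264) was below input, with 13 and 12 in Rcor2 ChIP, 16 and 23 in input and 4 and 0 in IgG. The other two overlapped input: one had 7 and 26 in Rcor2 ChIP, 14 and 11 in input and 7 and 4 in IgG, and the last had 10 and 25 in Rcor2 ChIP, 10 and 7 in input and 5 and 5 in IgG. The Cacna1g peak (chromosome 11, 94474599 to 94474840) lay at the promoter end, its summit 331 bases outside the RefSeq span, with 9 and 17 in Rcor2 ChIP, 16 and 20 in input and 4 and 2 in IgG. The 10 genes with a peak counted 3 falls and 1 rise (30% and 10%). The 23 tested genes without a peak counted 6 falls and 1 rise (26.1% and 4.35%), beside 8.29% and 6.16% of all tested genes.

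The other peaks belonged to genes that did not pass the RNA test. Cacna1a (chromosome 8, 84559869 to 84560165) had 15 and 19 in Rcor2 ChIP, 12 and 12 in input and 3 and 3 in IgG, and was above input. The peak of Cacna1i had 10 and 22 in Rcor2 ChIP, 23 and 13 in input and 5 and 1 in IgG, which overlap. At the Cacnb2 promoter (chromosome 2, 14603789 to 14604084) the heights were 10 and 27 in Rcor2 ChIP, 27 and 14 in input and 5 and 7 in IgG. Rcor2 replicate 2 was the higher of the pair at most of these peaks, with medians over the 17 of 13 in replicate 1 and 23 in replicate 2, beside 13 and 19 over all peaks.

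The sequences printed here show how far the starts listed for these genes differ in base composition, also within a gene. They are the 250 bases before the outermost listed start of Scn2a and Cacna1d, the sodium and the calcium channel gene with the smallest p among falls, those before the inner listed start of Cacna1d, and those before the listed start of Cacna1c nearest to its promoter peak. The summit of that peak lies at position -734 from the start, where negative is upstream. For Cacnb2, only the 29 window bases inside its peak are given. They were taken from RefSeq (GRCm38.p6) on the strand of the gene, with every CG in capitals.
Scn2a, chr2:65620519-65620768, plus strand: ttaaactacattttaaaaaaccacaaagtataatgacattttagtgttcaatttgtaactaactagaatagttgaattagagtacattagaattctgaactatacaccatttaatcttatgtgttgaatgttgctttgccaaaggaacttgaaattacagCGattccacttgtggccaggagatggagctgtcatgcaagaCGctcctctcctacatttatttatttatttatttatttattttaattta
Cacna1d, chr14:30491157-30491406, minus strand: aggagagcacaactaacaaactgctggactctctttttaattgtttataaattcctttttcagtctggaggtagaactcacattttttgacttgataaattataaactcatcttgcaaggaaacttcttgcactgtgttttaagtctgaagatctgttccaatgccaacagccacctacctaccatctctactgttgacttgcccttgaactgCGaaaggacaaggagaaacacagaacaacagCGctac
Cacna1d, inner start, chr14:30353487-30353736, minus strand: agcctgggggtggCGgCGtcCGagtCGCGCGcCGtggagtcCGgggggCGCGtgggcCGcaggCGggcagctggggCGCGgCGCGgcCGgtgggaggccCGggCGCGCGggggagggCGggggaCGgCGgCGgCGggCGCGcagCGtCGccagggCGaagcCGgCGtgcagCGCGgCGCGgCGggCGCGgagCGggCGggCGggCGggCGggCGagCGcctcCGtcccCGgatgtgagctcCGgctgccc
Cacna1c, chr6:119108496-119108745, minus strand: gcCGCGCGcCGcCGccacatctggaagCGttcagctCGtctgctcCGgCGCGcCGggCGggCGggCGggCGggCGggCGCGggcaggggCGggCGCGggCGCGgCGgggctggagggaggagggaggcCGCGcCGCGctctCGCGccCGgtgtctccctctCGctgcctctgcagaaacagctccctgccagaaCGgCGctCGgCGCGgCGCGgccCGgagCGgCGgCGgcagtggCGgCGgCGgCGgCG
Cacnb2, chr2:14604056-14604084, plus strand: aCGgCGaCGggcCGcagctgagtCGgagc
The outermost stretches of Scn2a and Cacna1d hold 2 CG each, with 29.6% and 39.6% G or C. The inner start of Cacna1d, which no promoter peak was named for, holds 50 with 86.4%, and that of Cacna1c beside its peak 48 with 82.8%. The other start of Scn2a holds 9 CG, and the other starts of Cacna1c hold 2 and 5. Over all 32851 listed windows the median was 6 CG in the 250 bases before the start, and 92.1% held at least 1; over the 37 windows of channel genes it was 9.

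The element through which Rest finds its targets is called RE1, and the rat form of Scn2a is one of the genes in which it was first described. The RE1 consensus, 21 letters of which 18 are fixed, was searched on both strands with up to 4 fixed letters changed. RefSeq promoter windows, from 250 bases before to 50 after a start, were listed for 26 of the 36 channel genes, 37 windows in all, and 0 held it. Of all 32851 windows 0.575% did. A match would be no proof of a site, and its absence here concerns these windows alone.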

How the data were processed

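RNA was measured in 2 cKO and 2 control libraries and chromatin in 2 Rcor2, 2 IgG and 2 input libraries, grouped by sample title. HISAT2 2.1.0, Trim Galore and mm10 are named, without roles, per the submitters' processing notes; no source used here gives the counter, annotation, strand use or peak caller settings. The deposited RNA table gives normalized counts, a signal per gene, per the file headers. Every value (100%) came out whole when divided by 1 step per library (tolerance 1e-04), which recovered reads. Beside them the authors deposited log2 fold changes, a test score and p-values. The authors' peak table gives heights (coverage), fold enrichment over IgG and, by place and range, −log10 p and q; the deposited headers of these columns are spoiled.

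The main test was limma-trend (limma 3.58.1, R 4.3.3) on log2(normalized count + 1), two-sided, without a replicate block, over 14324 genes with a mean of at least 10, adjusted by Benjamini-Hochberg and called under 0.05; 2014 genes were left out. Log2 changes are on that scale, which understates changes of low genes. Alternatives were other pseudocounts, filters and scalings, edgeR 4.0.16 and DESeq2 1.42.0 on the recovered reads, a replicate block and leaving out each library. The limma and edgeR fits were also run on simulated counts, with independent libraries and the same spread for every gene. That setting is simpler than these data, so its outcome is not used as support here. Values per library are given for called genes, genes with a peak and the most highly counted gene of each class, and genes next to the limit of 10 (Scn11a, Cacng1) are named. Scn1a, Scn2b, Scn4b, Cacna1s and the partner genes that did not pass are named beyond that rule and were chosen after their values were seen. Scn9a, Cacnb1, Cacng3, Cacng5, Cacng7, Cacng8, Cacna2d4 and Cacng6 are also named beyond that rule. The members and lists were chosen with earlier results of these data known. Normalized counts are not per length, so levels are not compared between genes. Some genes that enter the counts are not reported here by name. A peak that names more than 1 gene was counted for each. The marker counts that follow stand beside 8.29% lower and 6.16% higher of all tested genes. Marker lists of microglia, endothelium and mural cells had 0 called genes (0 of 4 and 0 of 7), those of blood 1 lower of 4, of choroid plexus 2 higher of 5, of intermediate progenitors 2 higher and 1 lower of 5, and of radial glia 4 higher and 1 lower of 10; of meninges 2 of 5 were higher, of dividing cells 4 of 7, and of muscle 0 of 4 (limma adjusted p under 0.05).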

Additional observations from a re-analysis of the deposited data

How the results depend on the processing

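The counts of 9 lower and 2 higher channel genes stayed within 1.5 times under other pseudocounts, filters and scalings, edgeR, DESeq2, the authors' deposited test and a replicate block (8 or 9 lower, 2 higher); leaving out each library gave 0 to 13 lower and 1 to 2 higher. Over all genes, leaving out a library gave 82 to 1921 lower and 58 to 1532 higher calls, and for the partner genes 2 to 22 lower and 0 to 4 higher. The partner genes called higher numbered 2 with genes of a mean of at least 50 and 2 with edgeR. The median of the channel genes, -0.18, was -0.22 with quantile normalization, -0.14 without control replicate 1 and -0.23 without control replicate 2. These were larger moves than its spread between replicates of 0.034. The median was -0.15 without cKO replicate 1 and -0.18 without cKO replicate 2, moves within that spread. Signs turned for 6 genes that had not passed. Without a library, Cacna1s ran from -0.38 to 0.070, Cacna1a from -0.12 to 0.057 (0.034 without cKO replicate 2, and 0.0033 with quantile normalization), Cacna1h from -0.089 to 0.0090, Cacna2d3 from -0.21 to 0.017, Cacnb2 from -0.046 to 0.21 (-0.035 without cKO replicate 1) and Cacng4 from -0.041 to 0.15. Of these, Cacna2d3 passed without cKO replicate 2 (lower). The causes were not tested.

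The labels do not say that same-numbered libraries are paired. Deviations of replicate 1 correlated at 0.24 across 14324 genes and at 0.44 across the 11641 with a mean of at least 100, and the replicate block called the same 11 channel genes, 9 lower and 2 higher. Channel genes with a peak numbered 4 at a fold enrichment of at least 5 (11.1%, beside 4.48% of all genes) and 3 for promoter peaks alone (8.33%, beside 9.60%), fewer by construction. Neither share over all genes is matched for span, and channel genes are long. With up to 5 letters changed, 1 channel gene, Cacna1i, held the RE1 motif (2.70% of channel windows, beside 3.92% of all). Depth limits the 3 untested genes and Scn11a, Scn4b, Cacna1s and Cacng3, each under 40 normalized counts in every library.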
